A study of Pongo abelii with 8 samples.

Results

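NODAL, a secreted ligand of the TGF-beta family, and the proteins that carry or restrain its signal were followed in orangutan skin fibroblasts and in the induced pluripotent stem cells (iPSCs) made from them. The members were 10 genes named by role, namely the ligands NODAL and GDF3, the co-receptor TDGF1, the receptors ACVR1B and ACVR2B, the secreted antagonists LEFTY1, LEFTY2 and CER1, and the intracellular mediators SMAD2 and FOXH1. All rows of the expression table annotated to 1 of these symbols were taken, which gave 17 of 22277 probe sets. TDGF1 was found under CRIPTO, its present symbol, on a probe set that also carries CRIPTO3, a near-identical copy, so the pair could not be told apart. LEFTY1 and LEFTY2 likewise share 1 probe set, and LEFTY1 has another of its own.

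Both animals were Sumatran orangutans. The iPSC group had 6 arrays, 3 colonies from KB10973 (a 29 year old male) and 3 from KB10460 (a 43 year old female), and the fibroblast group had 2 arrays, 1 untransduced culture from each animal. Both donors were labelled as healthy controls. The iPSCs came from those fibroblasts by retroviral transduction with human OCT4, SOX2, KLF4 and c-MYC, with valproic acid and basic FGF in the medium, and were picked as colonies and expanded on inactivated mouse embryonic fibroblasts, whereas the fibroblasts were grown in medium with serum. Since 3 colonies stand for 1 animal, a p-value here speaks for the variation among these cultures and not for orangutans at large.

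NODAL binds paired type I and type II activin receptors, such as ACVR1B and ACVR2B, with the help of the co-receptor TDGF1. The receptors phosphorylate SMAD2, which enters the nucleus and acts on target genes together with FOXH1. LEFTY1, LEFTY2 and CER1 are secreted proteins that block the ligand or its receptor complex, and the LEFTY genes are themselves targets of the pathway. In human pluripotent cells activin and NODAL signalling helps to keep the undifferentiated state, and stronger signalling directs cells towards mesendoderm.

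The arrays were made for human transcripts, so the fit of their probes to orangutan sequence is shown for the 3 member probe sets whose probe tilings the study printed. Each has 11 probes of 25 bases. All 33 probes were found whole in the upper line of the printed alignments and 23 in the lower line, and the upper line was therefore read as human although the heading of the alignments gives the opposite order. Of the 11 probes, 7 had no difference for TDGF1, 6 for the shared LEFTY1 and LEFTY2 probe set and 10 for ACVR2B. The aligned stretches were identical at 489 of 498, 484 of 496 and 518 of 519 bases of the human line, in the same order. Bases inserted in the orangutan line, 8, 1 and 0 in that order, are not part of these counts. The alignments number the bases of each line, but the genome build and the chromosome of the orangutan line are not given in the sources used here. The following probes are written 5′ to 3′ with the bases that differ from the aligned orangutan line in capitals, and the first probe given for each set has no difference.
TDGF1 probe 7: tatacctcaatgtccccaacaagat
TDGF1 probe 3: ggaagtccatctgCgtgtgtgcagg
TDGF1 probe 10: gctatTcaattCttttaactgttgt
LEFTY1/LEFTY2 probe 1: tcagctgggagtttctgttctctgg
LEFTY1/LEFTY2 probe 2: tgttctctggcaaattcTtcactga
LEFTY1/LEFTY2 probe 7: aacgcagaaggctttggCtcgtcat
ACVR2B probe 1: ctttggcttggctgttcgatttgag
ACVR2B probe 3: tgctCgagggagccatcaacttcca
Probe 9 of TDGF1 had the most differences, with 1 substitution and 2 bases missing from the orangutan line, and probe 1 of TDGF1 had 2 bases inserted there. The same probes were read in both cell types, and the effect of these differences on a level was not tested.

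Values are RMA log2 expression values, on which a difference of 1 is a doubling. The median of an array lay between 3.74 and 3.82, the correlation of iPSC arrays between 0.986 and 0.994 and that of the fibroblast arrays was 0.973. Of 7 measured pluripotency markers, which include the transgene SOX2, 7 were higher in iPSCs, and 9 of 10 fibroblast markers were lower, with THY1 the exception (higher). The mean log2 value of the pluripotency markers was 8.22 to 8.62 in the iPSCs and 3.70 to 3.72 in the fibroblasts. In bulk RNA, fewer cells that express a gene and less of its RNA per cell cannot be told apart.

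In iPSCs, 5 of the 17 member probe sets rose and 0 fell relative to fibroblasts, counting as called those past a 1.5-fold change with an adjusted p under 0.05 (limma, Benjamini-Hochberg over all probe sets, two-sided). Over all 22277 probe sets 12.2% rose and 9.6% fell. Rises made up 55.9% of these calls, but 34.6% when the arrays were centred on probe sets with a mean over 6, which put the median of all probe sets at -0.30. The same 5 member probe sets were called in that setting. The 5 probe sets are annotated to 6 of the 10 symbols, namely TDGF1, GDF3, ACVR2B, CER1 and, on 1 probe set, LEFTY1 with LEFTY2. The call of that shared probe set does not show that both LEFTY genes rose. The lowest iPSC array exceeded both fibroblast arrays in 6 member probe sets, the same 5 and that of FOXH1, against 19.8% of all probe sets. The median difference was 0.15 on the log2 scale over the member probe sets and -0.01 over all probe sets.

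**Figure D1:**
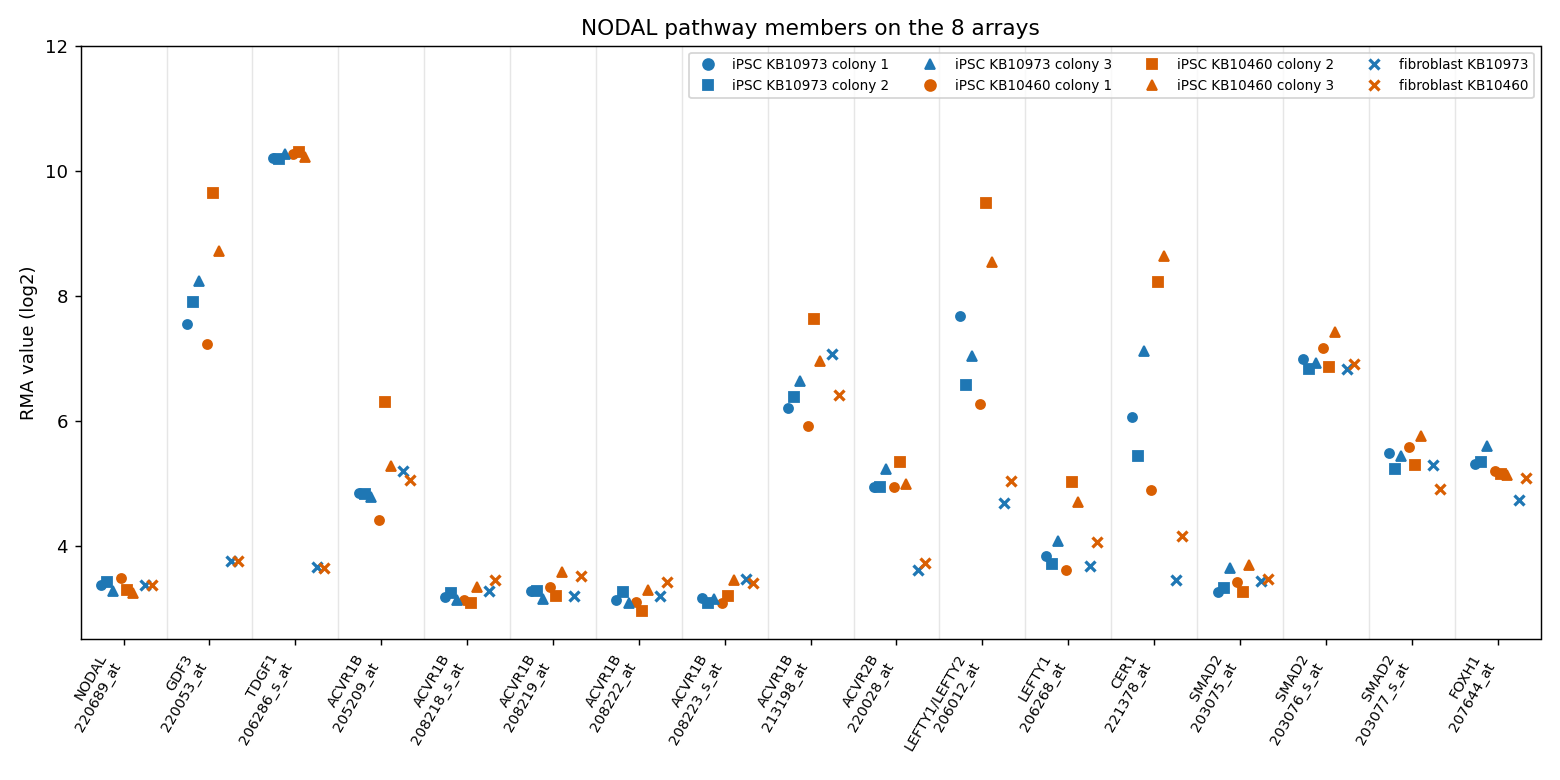
RMA log2 value (vertical axis) of each of the 17 member probe sets (horizontal axis) on the 8 arrays. Filled symbols are the 6 iPSC colonies and crosses the 2 fibroblast cultures, coloured by donor. TDGF1 sits between 10.19 and 10.30 in all 6 iPSC colonies, whereas CER1 spans 4.89 to 8.63.

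Of the ligands, GDF3 rose and NODAL did not pass the test. GDF3, a ligand of the same family that also uses TDGF1 in mammalian cells, had log2 values of 7.54, 7.89 and 8.23 in KB10973 iPSC colonies 1 to 3 and of 7.23, 9.64 and 8.72 in KB10460 iPSC colonies 1 to 3, against 3.75 in both fibroblast cultures. Every iPSC colony lay above the fibroblasts, and KB10460 colony 2 was the highest. The difference was 4.46 ± 0.54 (SE) on the log2 scale, a 22.0-fold change (limma, adjusted p = 0.00021). NODAL itself had log2 values of 3.37, 3.41 and 3.27 in KB10973 iPSCs and of 3.49, 3.28 and 3.24 in KB10460 iPSCs, against 3.37 and 3.37 in the fibroblasts. The groups overlapped, and every one of these values lay below its array's median. The difference was -0.03, with a 95% confidence interval of -0.22 to 0.17 (limma, adjusted p = 0.874). When the arrays were centred on probe sets with a mean over 6 it was -0.32 (limma, adjusted p = 0.0192), under a 1.5-fold change and close to the median of -0.30 over all probe sets in that setting. The files give no detection call, so these values do not tell a transcript at a low level from one that the human probes do not read.

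TDGF1, the co-receptor that brings NODAL to the activin receptors, had log2 values of 10.21, 10.19 and 10.27 in KB10973 iPSCs and of 10.27, 10.30 and 10.22 in KB10460 iPSCs, against 3.65 and 3.63 in the fibroblasts. The colonies lay within 0.11 of each other on the log2 scale. The difference was 6.60 ± 0.07 (SE), a 96.9-fold change (limma, adjusted p = 4.8e-11). The SD of TDGF1 over the iPSC colonies was 0.04, and 2.36% of all probe sets had an SD as low or lower.

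Of the receptors, ACVR2B rose and none of the 6 probe sets of ACVR1B passed the test. ACVR2B, a type II receptor, had log2 values of 4.94, 4.94 and 5.23 in KB10973 iPSCs and of 4.94, 5.34 and 4.98 in KB10460 iPSCs, against 3.61 and 3.71 in the fibroblasts. All colonies lay above both fibroblast cultures. The difference was 1.40 ± 0.13 (SE), a 2.64-fold change (limma, adjusted p = 3.8e-05).

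ACVR1B, the type I receptor ALK4, was read by 6 probe sets that did not behave alike. Probe set 213198_at had log2 values of 6.20, 6.38 and 6.63 in KB10973 iPSCs and of 5.91, 7.63 and 6.96 in KB10460 iPSCs, against 7.07 and 6.41 in the fibroblasts. Probe set 205209_at had 4.85, 4.82 and 4.78 in KB10973 iPSCs and 4.40, 6.30 and 5.27 in KB10460 iPSCs, against 5.20 and 5.06 in the fibroblasts. In both, KB10460 colony 1 lay below and KB10460 colony 2 above all other colonies, and the iPSC values spanned those of the fibroblasts. The differences were -0.12 ± 0.40 (SE) for 213198_at and -0.06 ± 0.41 (SE) for 205209_at (limma, adjusted p = 0.876 and 0.944), and their 95% confidence intervals of -1.02 to 0.79 and -0.99 to 0.88 include changes beyond 1.5-fold in each direction. The remaining 4 probe sets of ACVR1B lay between 2.95 and 3.58 in the iPSCs and between 3.19 and 3.51 in the fibroblasts, with differences of -0.25 to -0.06. Their values varied little among the colonies, with an SD of 0.09 to 0.15 (n = 6), against a median SD of 0.13 over all probe sets. All values of these 4 lay below the lowest array median of 3.74, so the low SD does not show a steady level of the transcript.

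Of the antagonists, the shared LEFTY1 and LEFTY2 probe set and CER1 rose, and both varied widely among the colonies. The shared LEFTY probe set had log2 values of 7.67, 6.57 and 7.04 in KB10973 iPSCs and of 6.27, 9.48 and 8.55 in KB10460 iPSCs, against 4.68 and 5.03 in the fibroblasts. The lowest colony was still above the higher fibroblast culture, and KB10460 colonies 2 and 3 were the highest. The difference was 2.75 ± 0.76 (SE), a 6.71-fold change (limma, adjusted p = 0.0228). Without the KB10973 fibroblast array the difference was 2.57 (limma, adjusted p = 0.113), and without the KB10460 fibroblast array 2.92 (adjusted p = 0.0883), so the call ended in each case at a difference of similar size. Such a fit leaves the fibroblasts with 1 array, and their spread is then taken from the iPSCs. Without KB10460 colonies 2 and 3, a setting chosen after seeing the data, the difference was 2.04 (limma, adjusted p = 0.00594).

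The probe set of LEFTY1 alone, 206268_at, had log2 values of 3.83, 3.70 and 4.07 in KB10973 iPSCs and of 3.60, 5.02 and 4.70 in KB10460 iPSCs, against 3.67 and 4.06 in the fibroblasts. Of the 6 colonies, KB10460 colonies 2 and 3 and, narrowly, KB10973 colony 3 were above both fibroblast cultures. The difference was 0.29, with a 95% confidence interval of -0.54 to 1.12 (limma, adjusted p = 0.637). Which of the paralogs carries the signal of the shared probe set cannot be told apart from these files.

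CER1, which encodes the secreted antagonist Cerberus, had log2 values of 6.06, 5.44 and 7.12 in KB10973 iPSCs and of 4.89, 8.23 and 8.63 in KB10460 iPSCs, against 3.45 and 4.15 in the fibroblasts. All colonies lay above both fibroblast cultures, and the highest colony was 13.4-fold above the lowest. The difference was 2.93 ± 0.94 (SE), a 7.61-fold change close to the threshold (limma, adjusted p = 0.0435). The call ended without KB10973 colony 1 (limma, adjusted p = 0.0575), KB10973 colony 3 (0.0776), KB10460 colony 2 (0.0647) or KB10460 colony 3 (0.0509), with differences of 2.55 to 3.06. It also ended without the KB10973 fibroblasts (2.58, limma, adjusted p = 0.195) or the KB10460 fibroblasts (3.28, adjusted p = 0.119), where again the spread is that of the iPSCs alone. Without KB10460 colonies 2 and 3 together the difference was 2.08 (limma, adjusted p = 0.0358). That setting was chosen after seeing the data and drops the highest pair of colonies, and its SE was 0.57 in place of 0.94.

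Of the mediators, neither SMAD2 nor FOXH1 was called. SMAD2, the receptor-activated SMAD of the pathway, was read by 3 probe sets. Probe set 203076_s_at had log2 values of 6.98, 6.82 and 6.92 in KB10973 iPSCs and of 7.16, 6.86 and 7.42 in KB10460 iPSCs, against 6.83 and 6.91 in the fibroblasts. The groups overlapped, and the difference of 0.15 had a 95% confidence interval of -0.19 to 0.50 (limma, adjusted p = 0.531), which lies within a 1.5-fold change. Probe set 203077_s_at averaged 5.46 ± 0.19 (SD, n = 6) in iPSCs and 5.10 ± 0.27 (SD, n = 2) in fibroblasts (limma, adjusted p = 0.115). Its difference of 0.36 had a 95% confidence interval of 0.02 to 0.71, which reaches beyond a 1.5-fold rise. Probe set 203075_at averaged 3.43 ± 0.19 (SD, n = 6) in iPSCs and 3.44 ± 0.03 (SD, n = 2) in fibroblasts.

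FOXH1, the forkhead partner of SMAD2, had log2 values of 5.31, 5.33 and 5.59 in KB10973 iPSCs and of 5.19, 5.14 and 5.13 in KB10460 iPSCs, against 4.73 in KB10973 and 5.09 in KB10460 fibroblasts. All colonies lay above both fibroblast cultures, the KB10460 colonies only narrowly above the KB10460 fibroblasts. The difference was 0.37, with a 95% confidence interval of 0.05 to 0.69 (limma, adjusted p = 0.0843). Of the 12 member probe sets that were not called, 7 had a 95% confidence interval inside a 1.5-fold change each way. Of these only SMAD2 on 203076_s_at had an iPSC mean above the array medians. The rest were NODAL, the low ACVR1B probe sets and SMAD2 on 203075_at. They averaged 3.13 to 3.43 in iPSCs, below the lowest array median of 3.74. Low values understate folds, so a narrow interval there does not show that a transcript was unchanged.

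**Figure D2:**
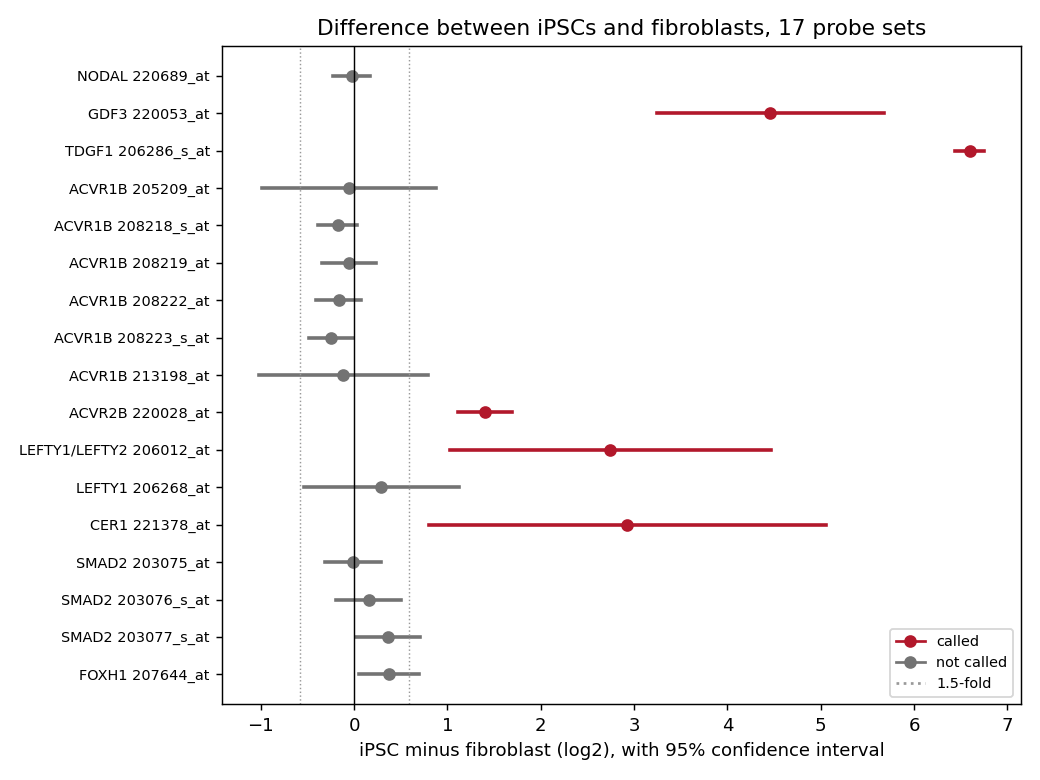
Difference between iPSCs (6 arrays) and fibroblasts (2 arrays) on the log2 scale (horizontal axis) for the 17 member probe sets, with 95% confidence intervals from limma. Dotted lines mark a 1.5-fold change. The intervals of the 5 called probe sets lie above 0, and that of TDGF1, around 6.60, is much narrower than that of CER1, around 2.93.

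The colonies of the donors were then compared, 3 against 3, and 0 member probe sets were called, against 0.0898% of all probe sets (20 of 22277). At an unadjusted p under 0.05 there was 1 member probe set, that of FOXH1, and 2265 of all probe sets. FOXH1 averaged 5.41 ± 0.16 (SD, n = 3) in KB10973 iPSCs and 5.15 ± 0.03 (SD, n = 3) in KB10460 iPSCs, a difference of 0.26 that did not pass after adjustment (limma, adjusted p = 0.421). The shared LEFTY probe set averaged 7.10 ± 0.55 (SD, n = 3) in KB10973 iPSCs and 8.10 ± 1.65 (SD, n = 3) in KB10460 iPSCs, and the 95% confidence interval of the difference, -2.71 to 0.70, is wide. CER1 averaged 6.21 ± 0.85 (SD, n = 3) in KB10973 iPSCs and 7.25 ± 2.05 (SD, n = 3) in KB10460 iPSCs, with an interval of -3.22 to 1.13. TDGF1 had an interval of -0.21 to 0.13 around a difference of -0.04. Without KB10460 colony 1, LEFTY1 on 206268_at was called lower in KB10973 than in KB10460 iPSCs, with a difference of -0.99 (limma, adjusted p = 0.0374) in place of -0.57 (adjusted p = 0.632). In that setting 152 of all probe sets were called, in place of 20.

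When the change from fibroblasts to iPSCs was compared between the donors, 0 member probe sets were called, against 2.91% of all probe sets. At an unadjusted p under 0.05 there was 1 member probe set, and 3388 of all probe sets (limma). That member was again FOXH1, which was 0.68 higher in iPSCs than in fibroblasts of KB10973 and 0.06 higher in KB10460 on the log2 scale. The difference of these changes was 0.61, with a 95% confidence interval of 0.16 to 1.06 (limma, adjusted p = 0.172). TDGF1 changed by 6.57 in KB10973 and by 6.63 in KB10460. Each donor has 1 fibroblast array, which was assumed to vary like a colony.

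Some members differed more among the 6 iPSC colonies than most transcripts on the array. An SD over 0.5 on the log2 scale was found in 6 of the 17 member probe sets, those of GDF3, CER1, both LEFTY probe sets and 2 of ACVR1B, and in 1.93% of all probe sets (429). Because the members were chosen with earlier results of these data known, setting these shares side by side is a description and not a test. The median SD was 0.19 for the members, 0.13 for all probe sets and 0.18 for the 4378 probe sets with an iPSC mean over 6. The highest colony was 9.24-fold above the lowest for the shared LEFTY probe set, 5.30-fold for GDF3, 3.74-fold and 3.29-fold for ACVR1B on 205209_at and 213198_at, and 2.68-fold for LEFTY1 on 206268_at. In the other members the colonies spanned at most 0.595 on the log2 scale.

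The order of the colonies was alike in these 6 probe sets. KB10460 colony 1 was the lowest and KB10460 colonies 2 and 3 were the highest pair in 6 of 6, and in 44 of the 429 probe sets (10.3%) with such an SD. The 6 are themselves among the 44, and ACVR1B and LEFTY1 are each read by more than 1 of them, so they are not 6 separate genes. KB10460 colony 2 was the highest of all in GDF3, ACVR1B and the LEFTY probe sets, and KB10460 colony 3 in CER1. The SD within KB10973 was 0.35 for GDF3, 0.55 for the shared LEFTY probe set and 0.85 for CER1, against 1.21, 1.65 and 2.05 within KB10460 (n = 3 each), and this difference in spread was not tested. Across the 6 colonies the Pearson correlation of pairs of these probe sets was 0.758 (ACVR1B 205209_at with CER1) to 0.999 (GDF3 with ACVR1B 213198_at). These correlations are descriptions over 6 colonies that share 2 donors and were read on the same arrays.

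Some of the 7 measured markers of mesendoderm varied among the same colonies in the order of the members, and others did not. GATA6, an endoderm transcription factor, had log2 values of 7.33, 6.06 and 8.28 in KB10973 iPSCs and of 5.88, 8.86 and 9.03 in KB10460 iPSCs, against 3.79 and 3.47 in the fibroblasts. CXCR4, a chemokine receptor found on definitive endoderm, had 6.61, 5.93 and 6.84 in KB10973 iPSCs and 5.05, 7.78 and 7.02 in KB10460 iPSCs, against 8.20 and 8.91 in the fibroblasts. FOXA2, a forkhead factor of endoderm, had 3.94, 3.69 and 4.13 in KB10973 iPSCs and 3.43, 4.95 and 5.58 in KB10460 iPSCs, against 3.20 and 3.37 in the fibroblasts.

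These 3 markers had the order of the members, and the other 4 did not. AFP, a product of yolk sac and liver, had 6.35, 5.51 and 5.95 in KB10973 iPSCs and 6.27, 5.43 and 6.37 in KB10460 iPSCs, against 3.71 and 4.10 in the fibroblasts, so that KB10460 colony 2 was the lowest colony. TBXT, the mesoderm factor Brachyury, was lowest in KB10460 colony 1 (4.74) and highest in KB10973 colony 3 (7.34). SOX17, an endoderm factor, was lowest in KB10973 colony 2 (3.49) and highest in KB10460 colony 2 (4.62), and GATA4, another GATA factor of endoderm, was lowest in KB10460 colony 1 (3.40) and highest in KB10460 colony 2 (4.23). Outside this list the order of the members was also found in 1 of 8 trophoblast and amnion markers (GATA2) and 1 of 6 neuroectoderm markers (SOX1). Their SDs over the colonies were 0.14 and 0.07. LHX1, of the target and lineage genes, had the order too. In the fibroblast and pluripotency markers 0 had it.

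KB10460 colony 1 was the lowest colony in 5 of 7 mesendoderm markers, but also in 5 of 8 trophoblast and amnion markers, 4 of 10 fibroblast markers, 2 of 6 neuroectoderm markers and 1 of 7 pluripotency markers. These marker counts, and those of markers in the order of the members, have no SD filter. The matching share of all probe sets without a filter was not counted, so the counts are descriptions only. Among the 429 probe sets with an SD over 0.5, a different set, KB10460 colony 1 was the lowest in 24.5% and the highest in 22.8%. The mean log2 value of the 7 mesendoderm markers was 5.44, 4.96 and 5.79 in KB10973 iPSCs and 4.63, 6.03 and 6.04 in KB10460 iPSCs, against 4.26 and 4.56 in the fibroblasts. The mean over the fibroblast markers was 4.66 in KB10460 colony 1 and 4.71 to 5.14 in the other colonies, against 9.53 and 9.11 in the fibroblasts. The mean over the pluripotency markers was 8.62 in KB10460 colony 1 and 8.22 to 8.46 in the other colonies. No marker had a value of 0 on any array, but RMA log2 values do not fall to 0 for an absent transcript. Without a detection call, this does not show that every marker was expressed. The part of differentiating cells in the spread of the members was not tested.

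**Figure D3:**
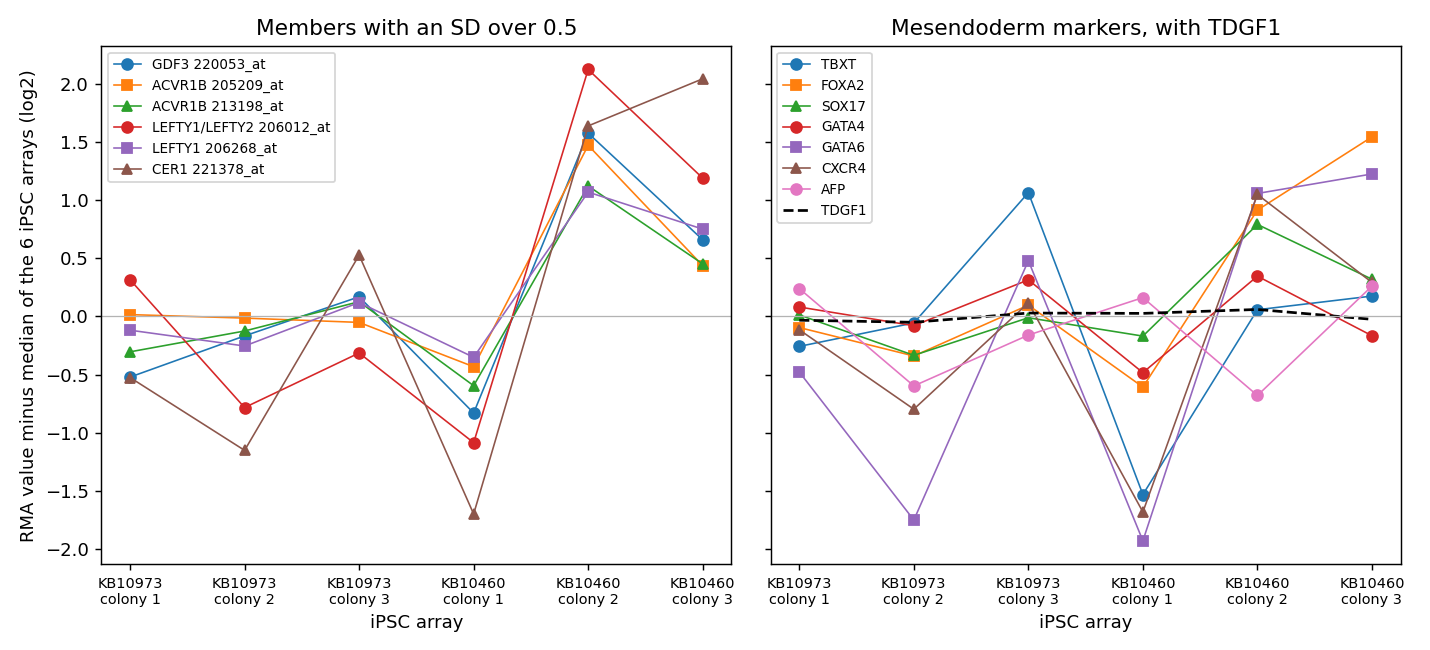
RMA log2 value minus the median of the 6 iPSC arrays (vertical axis) for each iPSC colony (horizontal axis), for the 6 member probe sets with an SD over 0.5 (left) and for 7 mesendoderm markers with TDGF1 (right). Lines join the values of 1 gene and do not stand for an order in time. KB10460 colony 1 is the lowest point of all 6 member probe sets, and TDGF1 stays near 0.

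Outside the members, the genes whose pattern over the colonies was most like theirs were looked up among 275 genes with an SD over 0.5. VEGFA, an angiogenic growth factor, was the nearest to LEFTY1 on 206268_at with a Pearson correlation of 0.998, followed by STC1 (0.978) and XPA (0.977). STC1, a secreted glycoprotein, was the nearest to GDF3 (0.982) and to ACVR1B on 213198_at (0.981), followed in both by VEGFA (0.959 and 0.960) and then by SYT1 (0.957) for GDF3 and SERPINI1 (0.954) for ACVR1B. For ACVR1B on 205209_at the nearest were SERPINI1 (0.992), FRZB (0.985) and SLCO2A1 (0.972). The shared LEFTY probe set was nearest to CYB5R1 (0.973), LGR5 (0.971) and CST1 (0.969), and CER1 to RBM5 (0.991), KRT19 (0.985) and HPGD (0.984). Between 5.82% and 12.7% of the 275 genes had a correlation over 0.9 with a given member, so high values are common over 6 colonies.

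The values show how closely these genes ran beside the members. VEGFA had log2 values of 7.34, 7.21 and 7.60 in KB10973 iPSCs and of 7.16, 8.73 and 8.28 in KB10460 iPSCs. LGR5, a receptor of the WNT-enhancing R-spondins, had 4.12, 3.18 and 3.84 in KB10973 iPSCs and 3.56, 6.57 and 5.49 in KB10460 iPSCs. KRT19, a keratin of simple epithelia, had 8.69, 8.54 and 9.14 in KB10973 iPSCs and 8.21, 9.44 and 9.42 in KB10460 iPSCs. In all 3 genes KB10460 colonies 2 and 3 were the highest pair, whereas the lowest colony was KB10973 colony 2 for LGR5 and KB10460 colony 1 for VEGFA and KRT19.

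A wider list, called pathway genes here, held NODAL signalling genes together with related activin, TGF-beta and BMP genes, such as TGFBR2, LTBP1, BMP4 and SMAD1. Its counts therefore do not describe NODAL signalling alone. Of the 62 genes listed, 49 were measured on a probe set of their own. Of these, 9 rose, 13 fell and 27 were not called in iPSCs relative to fibroblasts. With 1 probe set per gene, 15.2% of 11963 genes rose and 11.5% fell. The median difference was -0.04 over the 49 genes and -0.004 over all genes. Some uncalled genes averaged below the array medians in both cell types, such as TGFBR1 (3.35 in iPSCs, 3.39 in fibroblasts) and SKIL (3.34 and 3.20). Low values understate folds, so such genes were not shown to be unchanged.

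Among 9 ligands and processing enzymes, 1 rose and 3 fell. INHBA, the subunit of activin A, had log2 values of 3.53 to 3.86 in the 6 iPSC colonies, against 8.35 in KB10973 and 10.87 in KB10460 fibroblasts, a difference of -5.88 ± 0.50 (SE, limma, adjusted p = 2.4e-05). INHBB, the subunit of activin B, fell by 2.79, and FURIN, a protease that cleaves precursors of the family, fell by 0.62. INHBE, another activin subunit, rose by 0.80 at low values. It had 3.67 to 4.01 in iPSCs, near the array medians of 3.74 to 3.82, against 2.86 and 3.13 in the fibroblasts, below them.

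Among 7 receptors and co-receptors, 2 rose and 4 fell. TGFBR2, the type II receptor of TGF-beta, had log2 values of 3.34 to 3.65 in iPSCs, against 9.63 and 9.64 in the fibroblasts, a difference of -6.11 ± 0.09 (SE, limma, adjusted p = 3.4e-10). TGFBR3, ACVR1 and LRP1 fell by 0.91, 0.68 and 0.65. GPC4, a cell surface proteoglycan, had 8.63 to 9.63 in iPSCs, against 3.21 and 3.45 in the fibroblasts, and rose by 5.84. ACVR2A, the type II activin receptor closest to ACVR2B, rose by 0.96, and its colonies lay between 5.42 and 5.84, against 4.49 and 4.90 in the fibroblasts.

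Among 8 antagonists, 1 rose and 3 fell. BAMBI, a pseudoreceptor that blocks TGF-beta family receptors, had log2 values of 9.05 to 9.76 in iPSCs, against 3.25 and 3.24 in the fibroblasts, and rose by 6.18 ± 0.21 (SE, limma, adjusted p = 5.5e-08). LTBP1, which holds latent TGF-beta in the matrix, fell by 3.42. The inhibitory SMADs fell, SMAD7 by 1.79 and SMAD6 by 0.88. FST, which binds activins, had 7.01 to 8.44 in iPSCs, against 6.93 and 9.72 in the fibroblasts, and was not called.

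Among 16 SMADs and cofactors, 3 rose and 2 fell. TGIF2, a repressor of SMAD target genes, rose by 2.23, TRIM33, a chromatin-binding partner of SMADs, by 1.17 and SMAD4, the common partner SMAD, by 0.84, though the colonies of SMAD4 overlapped with the fibroblasts. SMURF2, a ubiquitin ligase, fell by 1.76, and SMAD3, the close relative of SMAD2, fell by 0.75, with 4.42 to 4.66 in iPSCs, against 5.38 and 5.17 in the fibroblasts. Among 9 target and lineage genes, GATA6 rose by 3.94 and TBXT by 1.63, and CXCR4 fell by 2.02.

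**Figure D4:**
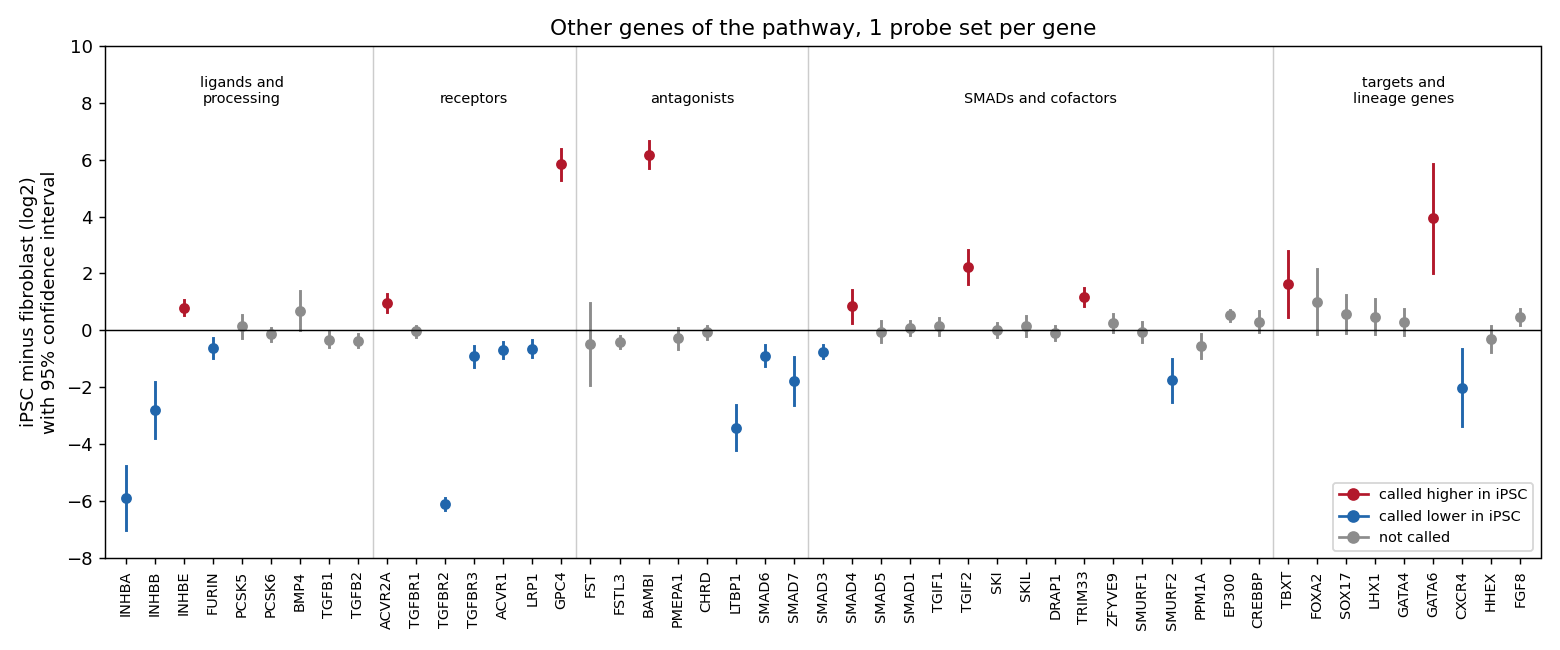
Difference between iPSCs and fibroblasts on the log2 scale (vertical axis), with 95% confidence intervals from limma, for 49 other genes (horizontal axis), grouped by role. The genes are those of the wider list of NODAL, activin, TGF-beta and BMP signalling. BAMBI and GPC4 lie near 6 above 0 and TGFBR2 and INHBA near 6 below it, and 27 genes (grey) were not called.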

How the data were processed

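RNA of 8 orangutan cultures was hybridized to one-colour Affymetrix GeneChips made for human transcripts. The authors ran RMA in WebArray, of a version not given in the sources used here, and deposited log2 values for 22277 probe sets. The method equalizes the distributions of the arrays, so a change shared by most transcripts is removed, and low values understate folds. The number of arrays limits the precision. No column lacked a sample (0). In the platform annotation 19070 probe sets carry 1 symbol, 1043 carry more and 2164 carry none.

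Models were fitted to all probe sets with lmFit and eBayes of limma 3.58.1 (R 4.3.3), for iPSCs against fibroblasts over 8 arrays without a block, for KB10973 against KB10460 iPSCs over 6 arrays, and for the difference of the change over 4 group means. Calls needed a change over 1.5-fold and a Benjamini-Hochberg adjusted p under 0.05. The methods of the study name another false discovery rate, SPLOSH, which was not used here. For genes outside the members, the probe set with the highest mean among those with 1 symbol was taken. Named genes are every member probe set, the called pathway genes (at most 6 each way per list), and the 3 genes most like each member with an SD over 0.5. FST, THY1, FOXA2, SOX17, GATA4, AFP, GATA2, SOX1 and LHX1 were named outside this rule, after their values were seen. The members and lists were chosen with earlier results of these data known. Probes were compared in Python 3.11.15. The scripts were tested on simulated data. Promoters and proteins were not analysed here.

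The donor pairs the arrays, because each animal gave both cell types. Across probe sets the donor difference in iPSCs correlated at 0.02 with that in fibroblasts. Alternatives changed the block, arrays, centring, filter, moderation, weights and thresholds.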

Additional observations from a re-analysis of the deposited data

Results flagged for a closer look

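Of 39 probe sets screened, the 17 of the members and those of 22 called pathway genes, 2 had 1 iPSC colony far from the other 5. ACVR1B on 208223_s_at was at a log2 value of 3.44 in KB10460 colony 3, against 3.19 in the nearest colony, and ACVR1 on 203935_at was at 5.30 in the same colony, against 5.60 in the nearest. By chance about 1 in 20 groups is set apart in this way.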

How the results depend on the processing

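GDF3, TDGF1 and ACVR2B stayed called under every alternative run, with differences of 3.97 to 4.65, 6.31 to 6.64 and 1.11 to 1.45. The number of members called higher was 3 in place of 5 with arrayWeights and 3 with Benjamini-Yekutieli adjustment, and 3 to 5 when 1 array was left out, since the LEFTY probe set and CER1 dropped out. The adjusted p over all alternatives (limma) was 0.00594 to 0.241 for the LEFTY probe set and 0.019 to 0.46 for CER1, which also lost its call with trended and robust moderation. Pathway genes called lower numbered 7 with colonies averaged within donor and 7 at a 2-fold threshold, in place of 13, and 18, with 7 higher in place of 9, with centring on probe sets over 6. With the donor as a block 5 members were called. Centring on probe sets over 6 moved the median of all probe sets to -0.30 and the share of calls that were higher to 34.6%, in place of 55.9%.

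With the colony number as a block between donors, 0 members and 2 probe sets in all were called, in place of 0 and 20. Same-numbered colonies share only a number (correlations of deviations -0.06, -0.01 and 0.06). Leaving out 1 colony gave 0 to 1 called members and 1 to 152 probe sets in all, with 1 member where 152 were called. A donor contrast fitted over all 8 arrays gave the same values by construction, since each fibroblast group has 1 array.

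Uncalled differences near 0 changed sign. NODAL was 0.0176 with median centring and 0.0152 without KB10460 colonies 2 and 3, but -0.32 with centring on probe sets over 6 (limma, adjusted p = 0.0192), LEFTY1 was -3e-04 with centring on probe sets over 6 and -0.0626 without those colonies, and SMAD2 was 0.0318 (203075_at, median centring), 0.0159 (203075_at, KB10973 colonies 1 and 2 averaged) and -0.14 (203076_s_at, centring over 6). With 1 array left out, ACVR1B ranged from -0.30 to 0.0762 (205209_at), -0.21 to 0.0991 (208219_at) and -0.45 to 0.21 (213198_at), and SMAD2 from -0.0626 to 0.0228 (203075_at). Between donors ACVR2B ranged from -0.15 to 0.0742, and the difference of the change from -1.57 to 0.0366 for the LEFTY probe set and -1.53 to 0.34 for CER1. The causes were not tested.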
